A study of Homo sapiens with 28 samples.

Results

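The genes described here encode the machinery that human cells use to enter, run and leave mitosis. The set holds 49 genes, listed by name for their known parts in late G2 and mitosis, out of 17687 named genes measured. Each of the 49 was measured by 1 probe set, and they were sorted into 7 groups by role: cyclins, CDK1 and their activators, mitotic kinases, the spindle checkpoint, kinetochores and centromeres, mitotic kinesins, spindle and cytokinesis proteins, and chromosome structure. RNA came from 7 human acute myeloid leukemia (AML) cell lines kept for 8 days in 1 µM Pinometostat, a small-molecule inhibitor of the histone methyltransferase DOT1L, or in 0.01% DMSO as the vehicle control. NOMO-1, MV4-11, THP-1 and MOLM-13 carry a rearranged MLL gene (MLL-r), whereas HL-60, U-937 and OCI-AML3 do not (non-MLL-r). Each line and condition has 2 Clariom S arrays, 28 in all, so every comparison inside a line sets n = 2 treated against n = 2 control arrays. Each line is a single leukemia in culture, and per the study's methods MV4-11 and OCI-AML3 were each grown in a medium of their own, which cannot be told apart from the line.

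Mitosis is driven by CDK1 bound to cyclins A and B, and the CDC25 phosphatases switch that kinase on. The Polo-like, Aurora, NEK and BUB kinases then build the spindle and check how chromosomes attach to it. Kinetochores are the protein plates on each centromere that hold microtubules, and the spindle checkpoint keeps the anaphase-promoting complex off until every kinetochore is attached. The complex, led by CDC20, then marks cyclin B and securin for destruction, the sister chromatids part, and kinesins and bundling proteins complete cytokinesis. Most of these genes are transcribed in a burst in G2 and are nearly silent in resting cells, so in a bulk RNA sample fewer dividing cells and less RNA in each dividing cell cannot be told apart. PBK, also called TOPK, is a MAP kinase kinase-like enzyme that is active in mitosis and is abundant in dividing and leukemic cells.

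Promoters of G2 and mitosis genes commonly carry a short element near the start site, the cell cycle homology region (CHR), often with the letters TTTGAA, which the DREAM and MYB-MuvB-FOXM1 complexes are known to contact. RefSeq windows (GRCh38.p14) running from 250 bases before to 50 bases after a start site were found for 41 of the 49 genes, 53 windows in all. TTTGAA, read on both strands, was present in 60.4% of these 53 windows and in 15.2% of all 35116 windows of the same length. Inside the 150 bases from 100 before to 50 after the start, the shares were 52.8% of the members' windows and 6.84% of all windows. The CCAAT box, with the letters CCAAT on both strands, was in 69.8% of the members' windows and in 34.6% of all windows. The 2 E2F letter strings searched on both strands were rarer: TTTCCCGC was in 1.89% of the members' windows and 1.63% of all, and TTTGGCGC in 3.77% and 0.652%. Several genes have more than 1 window and some windows of a gene overlap, and a match is only a match of letters. The stretches below show the match nearest the start site in the 4 genes that carry TTTGAA and were called lower in the most lines, with ties broken by the average change. The 6 bases of the match are in capitals with 12 bases on either side, read along the gene's strand.
MAD2L1, chr4:120066807-120066836, minus strand: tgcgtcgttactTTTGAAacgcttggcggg
KIF15, chr3:44761747-44761776, plus strand: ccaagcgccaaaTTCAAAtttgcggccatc
PLK1, chr16:23678848-23678877, plus strand: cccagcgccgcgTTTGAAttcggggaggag
NUF2, chr1:163321958-163321987, plus strand: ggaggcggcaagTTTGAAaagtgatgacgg
The match starts at base 25 after the start of MAD2L1 and base 17 after that of NUF2, and at 29 bases before the start of PLK1. In KIF15 it lies 35 bases before the start on the opposite strand, so that the printed strand reads TTCAAA. Of the 19 genes called lower in at least 1 line, 15 have a window and 9 of these hold TTTGAA, and 29 of the 41 genes with a window hold it.

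Replicate arrays of a condition correlated at 0.953 to 0.985 across all genes, and the medians of named genes per array ran from 5.67 to 5.80. The 49 genes carried a difference between replicate numbers that the average gene did not. In the 4 MLL-r lines and OCI-AML3, between 41 and 44 of the 49 were lower on replicate 2 than on replicate 1 of the same condition, and the median difference in a condition ran from −0.29 to −0.74 on the log2 scale. In U-937 and HL-60, 26 to 32 were lower on replicate 2 and the median difference ran from −0.03 to −0.12. Over all genes the same medians lay between −0.06 and 0.00. A few members went the other way, and CDC25B was higher on replicate 2 in 14 of 14 groups. Arrays of a condition lay apart in other cell cycle genes too. The summed log2 signal of 32 DNA replication genes was 253.6 and 268.1 on treated arrays of MOLM-13, and 264.4 and 265.1 on those of U-937. Treated and control arrays with the same number deviated together, so adjusted counts that a replicate block moves are also given with that block. Whether replicates are separate cultures is not given in the sources used here, and p-values measure only the spread between these arrays.

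**Figure D1:**
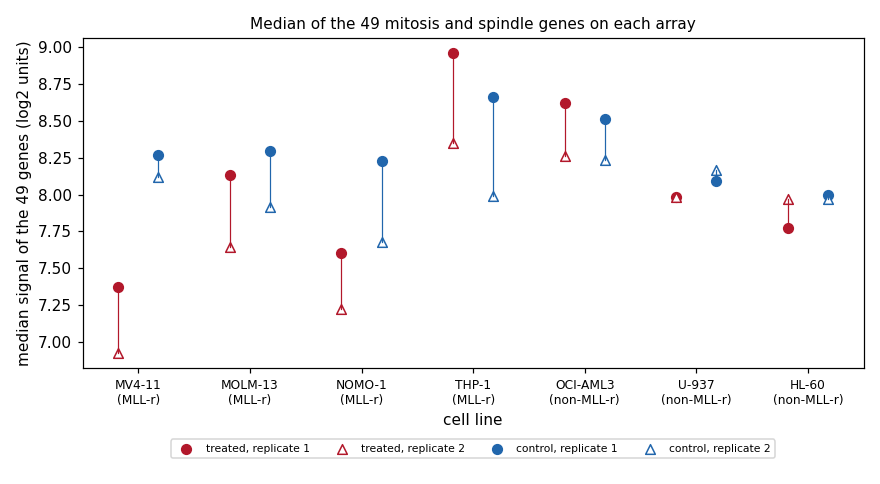
Median log2 signal of the 49 mitosis and spindle genes on each of the 28 arrays, by cell line, with treated arrays (red) left of control arrays (blue). Circles are replicate 1 and triangles replicate 2, joined by a line. Both treated arrays lie below both control arrays in U-937, MV4-11 and NOMO-1, and replicate 2 lies below replicate 1 in both conditions of the first 5 lines.

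Of the mitotic genes, 18 were called lower after treatment in MV4-11, 4 in NOMO-1 and 1 in U-937, and none passed adjustment over all genes in a line without the replicate block. The median treated minus control difference of the 49 was −0.90 in MV4-11, −0.48 in NOMO-1, −0.22 in MOLM-13, −0.10 in U-937, −0.04 in OCI-AML3, 0.01 in HL-60 and 0.14 in THP-1, all on the log2 scale. Over all 17687 genes the median lay between −0.03 and 0.00 in each line. Taking arrays of the same number, the medians for replicates 1 and 2 were −0.84 and −0.94 in MV4-11, −0.58 and −0.38 in NOMO-1, 0.19 and 0.14 in THP-1, and −0.06 and −0.39 in MOLM-13. They were 0.05 and −0.20 in OCI-AML3, −0.05 and −0.12 in U-937, and −0.04 and 0.05 in HL-60. Both pairs therefore lay on the same side of 0 in the MLL-r lines and U-937, and on opposite sides in OCI-AML3 and HL-60.

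**Figure D2:**
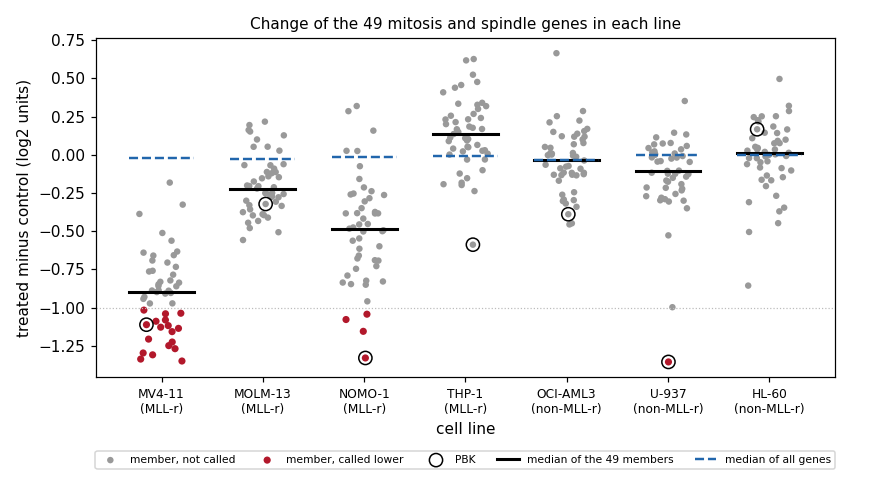
Treated minus control difference (log2 units) of each of the 49 genes in each line, 1 point per gene. Red points are called lower, grey points are not called, PBK is circled, black bars are the median of the 49 and dashed blue bars the median of all genes. The 49 are all below 0 in MV4-11, and PBK is the lowest of them in NOMO-1, THP-1 and U-937.

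A gene was called lower where the limma p was under 0.05 and the log2 difference was −1 or less, the thresholds of the study. The 18 members called in MV4-11 stand against 1.52% of all genes called lower there, and the 4 in NOMO-1 against 3.12%. In U-937 PBK alone was called lower, where 0.113% of all genes were. No member was called lower in MOLM-13, THP-1, OCI-AML3 or HL-60, where the shares of all genes were 0.0848%, 0.718%, 0.537% and 0.175%. None of the 49 was called higher (p under 0.05 and 1 or more) in any line. The shares of all genes called higher were 4.75% in NOMO-1, 2.39% in MV4-11, 1.9% in OCI-AML3, 1.72% in THP-1, 0.859% in MOLM-13, 0.3% in U-937 and 0.26% in HL-60.

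No member reached a Benjamini-Hochberg adjusted p under 0.05 over all genes in any line with limma, the smallest being 0.0706 for TPX2 in MV4-11. At an unadjusted p under 0.05, 39 were lower in MV4-11 (4.93% of all genes), 9 in NOMO-1 (5.17%) and 2 in U-937 (1.51%), and none was higher in any line without the replicate block. The count of lower members was 0 in MOLM-13 (0.356% of all genes), THP-1 (2.34%), OCI-AML3 (1.74%) and HL-60 (0.633%). The block moved these unadjusted counts, and shares of all genes for that were not taken. With it KIF18A, CKAP2, NDC80, KIF11, NUF2 and SPC25 were higher in THP-1 at an unadjusted p under 0.05, where PBK was lower. CENPE was then higher in OCI-AML3 and NUF2 lower in MOLM-13. No member was higher at an adjusted p under 0.05 with the block in any line. With the replicate number as a block, 32 of the 49 fell in MV4-11 at an adjusted p under 0.05, against 2.71% of all genes, and 13 fell in NOMO-1, against 7.61%. Of these, 9 genes fell in both lines, and the block gave 0 members in the other 5. Shares of all genes passing adjustment were not taken for those 5 lines, nor for any line without the block. Those counts of 0 therefore cannot be set against such a share. The count called lower in MV4-11 lay between 5 and 34, and that in NOMO-1 between 0 and 15, when 1 array per line was left out. The lowest counts came without treated replicate 2, the lower of the treated arrays for most members. Shares of all genes were not taken with an array left out, so these ranges cannot be set against them.

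Separation of the arrays was counted as well. Both treated arrays were below both control arrays for 46 of the 49 genes in MV4-11 (19.7% of all genes), 20 in NOMO-1 (20%), 11 in U-937 (14.2%) and 5 in HL-60 (11.3%). The counts were 1 in MOLM-13 (11.7%), 3 in THP-1 (16.8%) and 3 in OCI-AML3 (15.4%). In THP-1 both treated arrays were above both control arrays for 8 of the 49 (13.3% of all genes). The difference was below 0 for 49 of the 49 in MV4-11 (52.5% of all genes), 44 in NOMO-1 (51.5%), 40 in MOLM-13 (53.9%) and 10 in THP-1 (51%). It was below 0 for 28 in OCI-AML3 (54.4%), 33 in U-937 (49.8%) and 23 in HL-60 (49.9%). The share in THP-1 was thus below that of all genes. Of the 49, 29 were above 0 in THP-1 and below 0 in each of the other MLL-r lines, a count not taken over all genes. Some of the smaller medians turned when 1 array per line was left out. Without treated replicate 2 the median was 0.15 in MOLM-13 and 0.19 in OCI-AML3, and without treated replicate 1 it was −0.09 in THP-1.

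**Figure D3:**
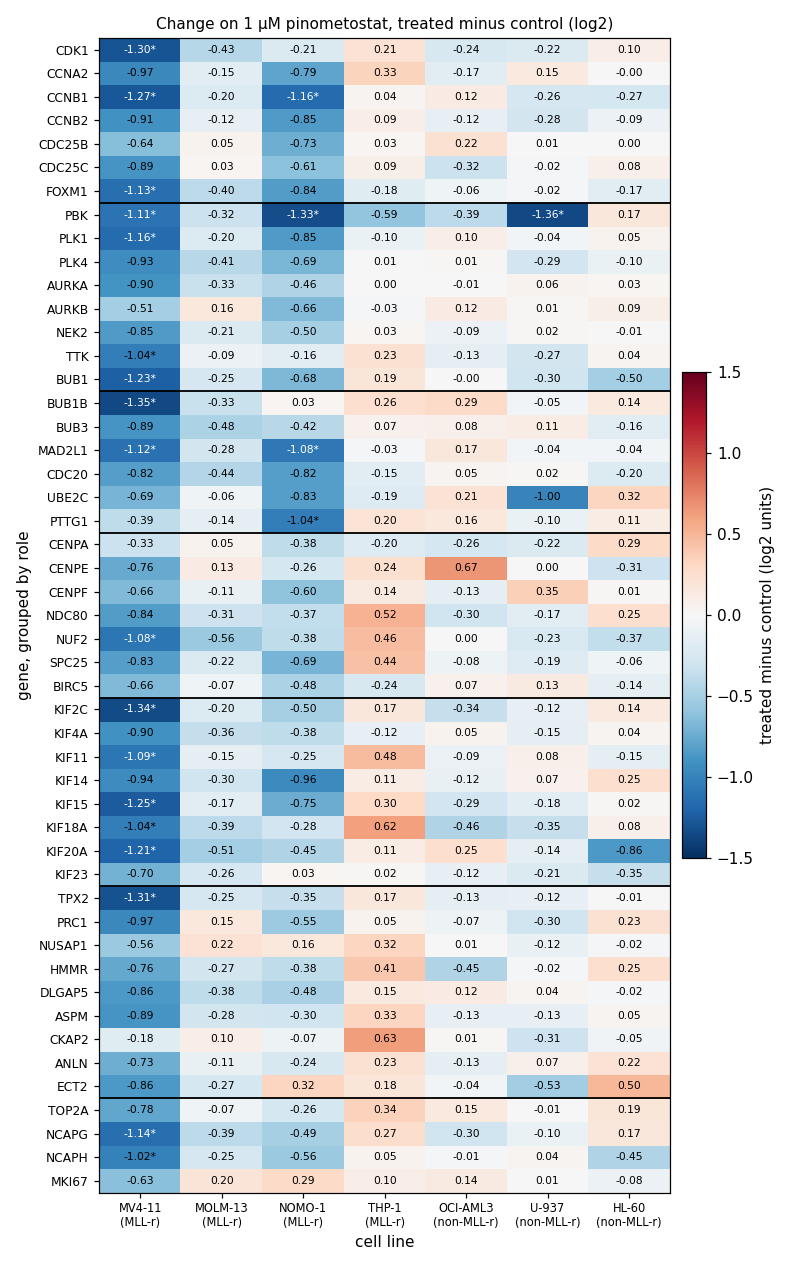
Treated minus control difference (log2 units) of each of the 49 genes (rows, grouped by role with black lines between roles) in each line (columns). Blue is lower and red is higher in treated cells, and an asterisk marks a gene called lower. The 18 asterisks of MV4-11 fall in all 7 roles, the 4 of NOMO-1 are CCNB1, PBK, MAD2L1 and PTTG1, and the 1 of U-937 is PBK.

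Of the 7 cyclins, CDK1 and its activators, 3 were called lower in MV4-11 and 1 in NOMO-1, with medians of −0.97 in MV4-11, −0.79 in NOMO-1 and 0.09 in THP-1. With the block 6 of them fell in MV4-11 and 5 in NOMO-1. CDK1, the kinase that starts mitosis, measured 7.08 and 6.23 on the treated arrays of MV4-11, against 8.27 and 7.63 on the control arrays. Its difference was −1.30 ± 0.36 (SE, n = 2 against 2, blocked adjusted p = 0.00917), and it ran up to 0.21 in THP-1. FOXM1, a transcription factor that switches on the G2 and mitosis program, was the only member with a difference below 0 in all 7 lines. It measured 7.91 and 8.14 in treated MV4-11, against 8.89 and 9.41 in control cells, and its difference ran from −1.13 in MV4-11 to −0.02 in U-937.

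CCNB1 is cyclin B1, the partner that activates CDK1. In MV4-11 it measured 7.72 and 6.83 on treated arrays, against 8.74 and 8.35 on control arrays. In NOMO-1 it measured 7.70 and 7.07 on treated arrays, against 9.02 and 8.06 on control arrays. The treated arrays were below the control arrays in both lines. The differences were −1.27 ± 0.35 in MV4-11 and −1.16 ± 0.42 in NOMO-1 (SE, blocked limma adjusted p = 0.0129 and 0.00168). Without treated replicate 2 neither call was kept, and without control replicate 1 that in NOMO-1 was lost. In MOLM-13 the treated arrays had 8.99 and 8.44, against 9.13 and 8.70 in control cells. In THP-1 the values were 9.41 and 8.84 in treated cells, against 9.23 and 8.94 in control cells. In OCI-AML3 they were 8.98 and 8.36 in treated cells, against 8.64 and 8.46 in control cells. The groups overlapped in these 3 lines. U-937 had 7.99 and 8.14 in treated cells, against 8.22 and 8.41 in control cells, and HL-60 had 7.02 and 6.98 in treated cells, against 7.49 and 7.05 in control cells. Here the treated arrays were the lower ones, by 0.26 and 0.27 on average, and the gene was not called.

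The other activators were not called. CCNA2, cyclin A2, ran from −0.97 in MV4-11 to 0.33 in THP-1, and CCNB2, the second B-type cyclin, from −0.91 in MV4-11 to 0.09 in THP-1. The phosphatase CDC25C, which frees CDK1 from inhibitory phosphates, ran from −0.89 in MV4-11 to 0.09 in THP-1. Its relative CDC25B was lowest in NOMO-1, at −0.73, and highest in OCI-AML3, at 0.22.

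Of the 8 mitotic kinases, 4 were called lower in MV4-11, and PBK alone in NOMO-1 and in U-937. PBK was the member called in the most lines, 3 of 7. The study had already named PBK among the genes down-regulated in at least 3 lines, from the same arrays and thresholds. Its calls and its average here are therefore not independent of that result. In MV4-11 it measured 5.95 and 4.61 on treated arrays, against 6.66 and 6.12 on control arrays. In NOMO-1 it measured 5.70 and 4.18 on treated arrays, against 6.67 and 5.86 on control arrays. In U-937 it measured 5.94 and 5.63 on treated arrays, against 7.24 and 7.04 on control arrays. In these 3 lines the treated arrays were all below the control arrays, and U-937 had the closest replicates. The differences were −1.11 ± 0.43 in MV4-11, −1.33 ± 0.52 in NOMO-1 and −1.36 ± 0.22 in U-937 (SE), which is 2.16-fold, 2.51-fold and 2.56-fold lower signal. In THP-1 the treated arrays had 7.21 and 5.50, against 7.22 and 6.67 in control cells, and in MOLM-13 they had 7.42 and 6.08, against 7.46 and 6.69. In both lines replicate 1 was nearly the same in the 2 conditions and the difference came from replicate 2, which gave −1.16 in THP-1 and −0.61 in MOLM-13. In OCI-AML3 PBK measured 7.12 and 5.98 in treated cells, against 6.96 and 6.92 in control cells, with the treated arrays on either side of the control ones. In HL-60, where PBK was lowest in control cells, it measured 4.95 and 4.58 in treated cells, against 5.09 and 4.10 in control cells, a difference of 0.17 ± 0.41.

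The block took PBK to adjusted p = 0.0332 in MV4-11 and 0.000636 in NOMO-1, and left it at 0.0948 in U-937. In U-937 PBK stood apart from the other members: its difference of −1.36 was followed by −0.997 for the ubiquitin-conjugating enzyme UBE2C, just short of the threshold, and the median of the 49 was −0.10. That call in U-937 was kept under each of the alternatives tried. The calls in MV4-11 and NOMO-1 were lost without control replicate 1 (−0.84 and −0.93) and without treated replicate 2 (−0.44 and −0.57), and with the methods' t-test, and that in MV4-11 also with 1 spread shared by all 28 arrays. Without treated replicate 2 the difference lay above 0 in MOLM-13 (0.35), THP-1 (0.26) and OCI-AML3 (0.18), and without treated replicate 1 PBK was also called in THP-1, at −1.44.

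**Figure D4:**
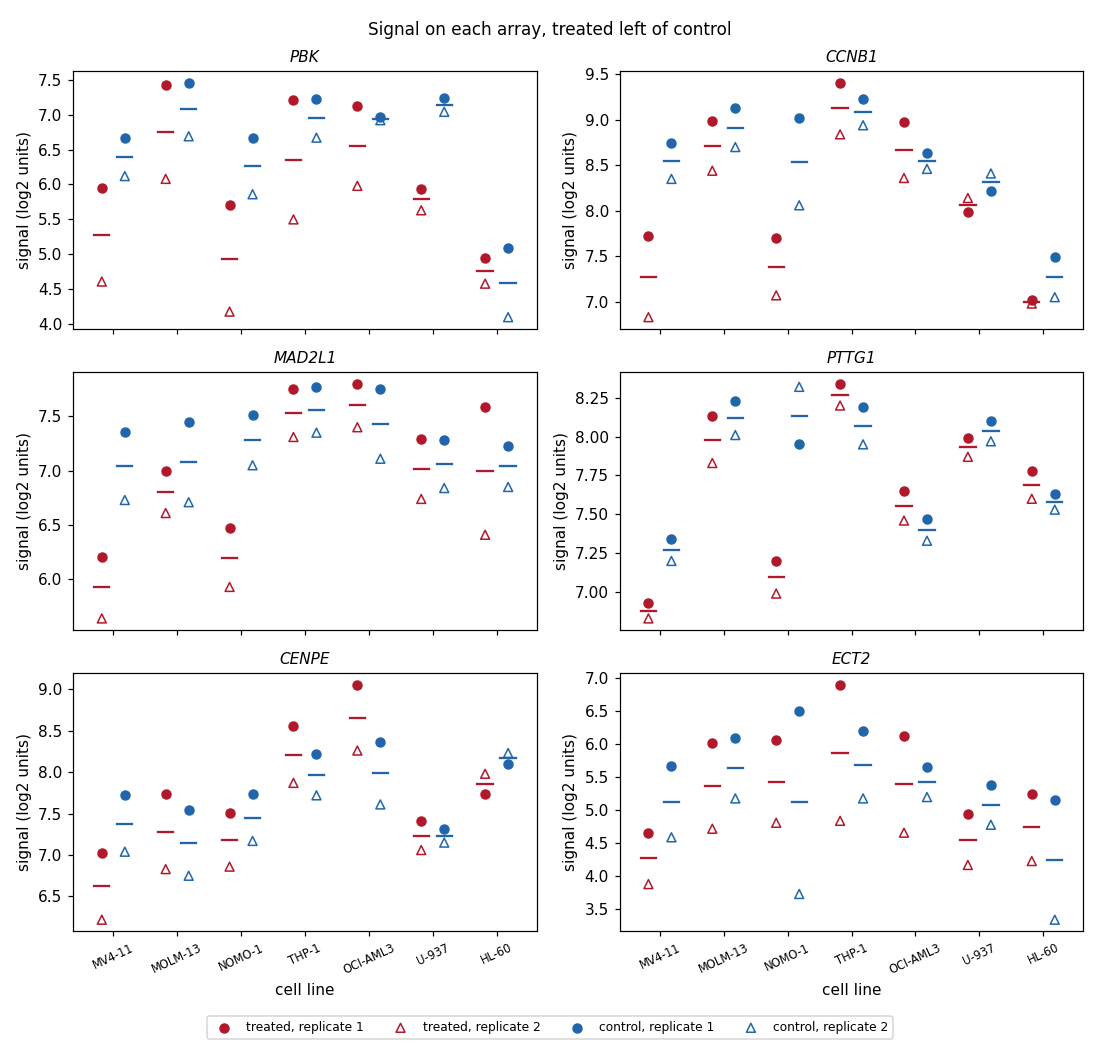
Log2 signal of PBK, CCNB1, MAD2L1, PTTG1, CENPE and ECT2 on each array, by line, with treated arrays (red) left of control arrays (blue). Circles are replicate 1, triangles replicate 2 and bars the mean of the pair. For PBK the treated and control arrays do not overlap in U-937, NOMO-1 and MV4-11, and for ECT2 the distance between replicates exceeds that between conditions in most lines.

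PLK1, the Polo-like kinase needed for spindle assembly, measured 9.58 and 9.39 in treated MV4-11, against 10.72 and 10.56 in control cells. That difference of −1.16 ± 0.28 went with closely matching replicates, and across lines PLK1 ran up to 0.10 in OCI-AML3. BUB1, a checkpoint kinase at kinetochores, ran from −1.23 in MV4-11 to 0.19 in THP-1, and TTK (MPS1), which starts checkpoint signaling, from −1.04 in MV4-11 to 0.23 in THP-1. Both were called in MV4-11. PLK4, which controls centriole duplication, ran from −0.93 in MV4-11 to 0.01 in OCI-AML3. AURKA, the Aurora kinase of the spindle poles, ran from −0.90 in MV4-11 to 0.06 in U-937, and NEK2, a centrosome kinase, from −0.85 in MV4-11 to 0.03 in THP-1. AURKB, the kinase of the chromosome passenger complex, had a narrower range, from −0.66 in NOMO-1 to 0.16 in MOLM-13.

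Among the 6 genes of the spindle checkpoint and anaphase control, 2 were called lower in MV4-11 and 2 in NOMO-1, with medians of −0.85 and −0.83 in these lines. In OCI-AML3 none of the 6 was below 0 (median 0.16, none called). MAD2L1, the checkpoint protein that holds CDC20, was called in both lines. In MV4-11 it measured 6.21 and 5.64 on treated arrays, against 7.36 and 6.73 on control arrays. In NOMO-1 it measured 6.47 and 5.93 on treated arrays, against 7.51 and 7.05 on control arrays. The groups did not overlap. The differences of −1.12 ± 0.33 in MV4-11 and −1.08 ± 0.36 in NOMO-1 (SE) had blocked limma adjusted p of 0.0146 and 0.00277. Both calls were lost without control replicate 1 and without treated replicate 2. In MOLM-13 it measured 7.00 and 6.61 in treated cells, against 7.45 and 6.71 in control cells. In THP-1 it measured 7.75 and 7.31 in treated cells, against 7.77 and 7.35 in control cells, and in OCI-AML3 7.80 and 7.40, against 7.75 and 7.11. U-937 had 7.29 and 6.74 in treated cells, against 7.28 and 6.84 in control cells, and HL-60 had 7.59 and 6.41, against 7.23 and 6.85. In these 5 lines the groups overlapped, and the lowest difference was −0.28 in MOLM-13.

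BUB1B (BUBR1), which inhibits the anaphase-promoting complex, had the lowest difference in MV4-11 of all 49. Its treated arrays there averaged 7.59 ± 0.94 and its control arrays 8.94 ± 0.52 (SD, n = 2 each), a difference of −1.35 ± 0.44 (SE), and in the other lines it ran from −0.33 in MOLM-13 to 0.29 in OCI-AML3. PTTG1, securin, which keeps separase inactive, was called in NOMO-1 and not in MV4-11. In NOMO-1 it averaged 7.10 ± 0.14 on treated and 8.14 ± 0.26 on control arrays, a difference of −1.04 ± 0.34, and in MV4-11 the difference was −0.39 ± 0.27. A near-identical gene, PTTG2, may share signal with this probe set. CDC20, the activator of the anaphase-promoting complex, ran from −0.82 in NOMO-1 to 0.05 in OCI-AML3, and BUB3, a checkpoint adaptor, from −0.89 in MV4-11 to 0.11 in U-937. UBE2C, which builds ubiquitin chains for the complex, ran from −0.997 in U-937 to 0.32 in HL-60.

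The 7 kinetochore, centromere and chromosome passenger genes had a single call, NUF2 in MV4-11. Their medians were −0.76 in MV4-11, −0.38 in NOMO-1 and 0.24 in THP-1. NUF2, a subunit of the NDC80 complex that grips microtubules, averaged 5.37 ± 0.56 on treated and 6.45 ± 0.48 on control arrays of MV4-11 (SD, n = 2 each). Its partners in the complex had ranges of −0.84 in MV4-11 to 0.52 in THP-1 for NDC80 and −0.83 in MV4-11 to 0.44 in THP-1 for SPC25, and NUF2 reached 0.46 in THP-1. CENPA, the histone that marks centromeres, ran from −0.38 in NOMO-1 to 0.29 in HL-60. CENPF, a large kinetochore protein, ran from −0.66 in MV4-11 to 0.35 in U-937, and BIRC5 (survivin), of the chromosome passenger complex, from −0.66 in MV4-11 to 0.13 in U-937.

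CENPE, a kinesin of the kinetochore, had the highest difference of any member in any line. In OCI-AML3 it measured 9.05 and 8.26 on treated arrays, against 8.36 and 7.61 on control arrays. The same-numbered arrays differed by 0.69 and 0.65, yet the groups overlapped because replicate 2 was lower in both conditions, and the difference of 0.67 ± 0.37 was not called. In MV4-11 it measured 7.03 and 6.22 in treated cells, against 7.72 and 7.04 in control cells. NOMO-1 had 7.51 and 6.86 in treated cells, against 7.73 and 7.17 in control cells, and MOLM-13 had 7.73 and 6.83, against 7.54 and 6.75. THP-1 had 8.55 and 7.87 in treated cells, against 8.22 and 7.72 in control cells. The differences in these lines lay between −0.76 in MV4-11 and 0.24 in THP-1. U-937 had 7.41 and 7.06 in treated cells, against 7.31 and 7.15 in control cells, and HL-60 had 7.74 and 7.98, against 8.10 and 8.23. The groups overlapped in U-937, and in HL-60 both treated arrays were the lower ones, by 0.31 on average.

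The mitotic kinesins, motors that move chromosomes and slide microtubules, held the most calls in MV4-11. There 5 of 8 were called lower, the median was −1.06, and 6 fell with the block. KIF2C, which takes microtubules apart at kinetochores, averaged 6.48 ± 0.32 on treated and 7.82 ± 0.36 on control arrays of MV4-11 (SD, n = 2 each). Its difference was −1.34 ± 0.31 (SE). KIF15, which helps keep the spindle bipolar, averaged 5.71 ± 0.17 on treated and 6.96 ± 0.08 on control arrays, a difference of −1.25 ± 0.28. KIF20A, a kinesin of cytokinesis, had −1.21 in MV4-11 and −0.86 in HL-60, the lowest difference in HL-60, where its control level was the lowest of the 7 lines. KIF11 (Eg5), the motor that pushes spindle poles apart, ran from −1.09 in MV4-11 to 0.48 in THP-1, and KIF18A, which limits chromosome movement, from −1.04 in MV4-11 to 0.62 in THP-1. KIF14, a cytokinesis motor, was lowest in NOMO-1 at −0.96 and fell there only with the block. KIF4A, a chromosome motor whose probe set may share signal with its near-identical copy KIF4B, ran from −0.90 in MV4-11 to 0.05 in OCI-AML3. KIF23, of the central spindle, ran from −0.70 in MV4-11 to 0.03 in NOMO-1.

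Of the 9 spindle and cytokinesis genes, TPX2 alone was called, in MV4-11, and all 9 were above 0 in THP-1 (median 0.23, none called). TPX2, which activates AURKA on spindle microtubules, averaged 7.63 ± 0.25 on treated and 8.94 ± 0.01 on control arrays of MV4-11 (SD, n = 2 each). PRC1, which bundles the central spindle, ran from −0.97 in MV4-11 to 0.23 in HL-60. ASPM, a spindle pole protein, ran from −0.89 in MV4-11 to 0.33 in THP-1, and DLGAP5, which stabilizes kinetochore fibers, from −0.86 in MV4-11 to 0.15 in THP-1. HMMR, a microtubule-binding protein, ran from −0.76 in MV4-11 to 0.41 in THP-1, and NUSAP1, a spindle-associated protein, from −0.56 in MV4-11 to 0.32 in THP-1. ANLN, the anillin of the contractile ring, ran from −0.73 in MV4-11 to 0.23 in THP-1. CKAP2, a microtubule-associated protein, differed from the rest in having its lowest value in U-937, at −0.31, and it reached 0.63 in THP-1.

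ECT2, the exchange factor that sets the cleavage plane, had the largest difference between replicate numbers, −1.24 on average and lower on replicate 2 in 14 of 14 groups. In NOMO-1 it measured 6.06 and 4.81 on treated arrays, against 6.51 and 3.73 on control arrays. In THP-1 it measured 6.90 and 4.84 on treated arrays, against 6.20 and 5.18 on control arrays. In both lines the replicates were further apart than the conditions. MOLM-13 had 6.02 and 4.72 in treated cells, against 6.09 and 5.18 in control cells, and OCI-AML3 had 6.13 and 4.66, against 5.66 and 5.20. MV4-11 had 4.66 and 3.88 in treated cells, against 5.67 and 4.59 in control cells. U-937 had 4.94 and 4.17 in treated cells, against 5.39 and 4.78, and HL-60 had 5.25 and 4.23, against 5.15 and 3.34. ECT2 was called in no line, and with the block it fell in MV4-11 (−0.86, adjusted p = 0.0432). PBK had the third-largest such difference, −0.83 on average, after KIF18A with −0.95.

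Of the 4 chromosome structure genes, the condensin subunits NCAPG and NCAPH were called lower in MV4-11. NCAPG averaged 8.07 ± 0.55 on treated and 9.20 ± 0.60 on control arrays there (SD, n = 2 each), and it ran up to 0.27 in THP-1. NCAPH ran from −1.02 in MV4-11 to 0.05 in THP-1. TOP2A, the topoisomerase that untangles sister chromatids, ran from −0.78 in MV4-11 to 0.34 in THP-1. MKI67, which encodes the proliferation marker Ki-67, ran from −0.63 in MV4-11 to 0.29 in NOMO-1, and was below 0 in only 2 of 7 lines.

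With the 7 lines as the samples, the average difference of the 49 had a median of −0.23, against −0.01 for all genes. At an unadjusted p under 0.05, 11 of the 49 were lower on average (limma, n = 7 lines), against 7.23% of all genes, and none passed adjustment over all genes, as was true of every gene on the array. PBK had the largest average, −0.70 ± 0.18 (SE), below 0 in 6 of 7 lines, with adjusted p = 0.225. The other 10 were FOXM1 (−0.40), PLK4 (−0.34), CDC20 (−0.34), BUB1 (−0.40), CCNB1 (−0.43), KIF20A (−0.40), CCNB2 (−0.32), NCAPH (−0.31), KIF23 (−0.23) and KIF4A (−0.26). Without MV4-11 the count was 2, and without NOMO-1 it was 4. MV4-11 had the lowest difference of the 7 lines for 40 of the 49 genes, NOMO-1 for 6 and U-937 for 3. THP-1 had the highest for 25. The same counts were not taken over all genes.

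MLL-r lines were compared with non-MLL-r lines on the differences themselves. The median over the 49 genes was −0.31 for MLL-r minus non-MLL-r lines, against −0.01 for all genes. At an unadjusted p under 0.05, 4 of the 49 were below 0 (limma, 4 against 3 lines), against 3.14% of all genes, and 0 passed adjustment (smallest adjusted p = 0.787). They were MAD2L1, with an average of −0.63 in MLL-r and 0.03 in non-MLL-r lines, PLK1 with −0.58 and 0.04, FOXM1 with −0.64 and −0.08, and CDC20 with −0.56 and −0.05. Without NOMO-1 or without MV4-11 the count was 0. For PBK the averages were −0.84 in MLL-r and −0.53 in non-MLL-r lines, a difference of −0.31 ± 0.36 (SE).

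The study's text names MV4-11, MOLM-13, NOMO-1 and OCI-AML3 as the lines whose growth was sensitive to Pinometostat, a grouping that the sample labels do not give and that was not measured on these arrays. Sensitive minus not sensitive lines had a median of −0.43 over the 49 genes, against −0.02 for all genes. At an unadjusted p under 0.05, 10 of the 49 were below 0, against 3.84% of all genes, and 0 passed adjustment with limma (smallest adjusted p = 0.735). HMMR led them, with an average of −0.47 in sensitive and 0.22 in not sensitive lines, followed by NCAPG (−0.58 and 0.11), KIF14 (−0.58 and 0.14) and NDC80 (−0.45 and 0.20). The others were CCNA2, CENPF, KIF15, KIF18A, KIF2C and ANLN. PBK was not among them, with −0.79 in sensitive and −0.59 in not sensitive lines. Without MV4-11 the count was 5.

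The difference between lines was tested on all 28 arrays together. In the interaction of line and treatment no member had an adjusted p under 0.05 with limma, against 3.33% of all genes, and 6 had an unadjusted p under 0.05, against 10% of all genes (smallest adjusted p = 0.149). With the replicate block the count was 17 of 49, against 10.7% of all genes. PBK was not among them (adjusted p = 0.151 with the block), so its calls in 3 lines were not shown to differ from its values in the others. The change in MV4-11 minus that in THP-1 had a median of −1.02 over the 49, all below 0, and −0.01 over all genes. It passed adjustment for TPX2 (−1.48 ± 0.35, SE, adjusted p = 0.0460) and KIF15 (−1.55 ± 0.36, adjusted p = 0.0479), against 0.322% of all genes below 0. With the block 22 of 49 passed, against 2% of all genes.

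The change in NOMO-1 minus that in THP-1 had a median of −0.65 over the 49, 46 of them below 0, and −6.7e-05 over all genes. Both comparisons use the arrays of THP-1. PTTG1 passed adjustment (−1.24 ± 0.30, adjusted p = 0.0345), against 0.554% of all genes, and with the block 7 of 49 passed, against 2.92%. The change in MV4-11 minus that in MOLM-13 had a median of −0.01 over all genes and −0.69 over the 49, which were all below 0. None of these passed adjustment (0.0905% of all genes did), 7 had an unadjusted p under 0.05 (2.3% of all genes), and with the block none passed either (0.464% of all genes did).

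Levels in control cells were compared among the lines. The share of members that differed was close to that of all genes, and somewhat above it with the replicate number as a term. The spread between the highest and the lowest line in control cells was 0.51 to 2.55 on the log2 scale, with a median of 1.03. An F test over the 14 control arrays found a difference among the 7 lines at an adjusted p under 0.05 for 15 of 49 genes, against 29.8% of all genes, and for 28 of 49 with the replicate number as a common term, against 46.5% of all genes. HL-60 had the lowest control level for 21 of the 49 and THP-1 the highest for 21, counts that were not taken over all genes. PBK had the widest spread, from 4.60 in HL-60 through 6.27 in NOMO-1 to 7.14 in U-937 (adjusted p = 0.00108). The 5 lines other than HL-60 and U-937 lay between 6.27 and 7.07, within 1 log2 unit. KIF20A spread by 2.40, with 5.75 in HL-60 and 8.15 in THP-1, and CDC20 by 2.19, with 8.65 in HL-60 and 10.84 in THP-1. UBE2C spread by 2.25, with 6.08 in U-937 and 8.34 in NOMO-1. MLL-r minus non-MLL-r control levels passed adjustment for none of the 49 (smallest adjusted p = 0.736) and had an unadjusted p under 0.05 for 2, against 6.49% of all genes.

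Other genes of the cell cycle were read from lists of known function. Of all genes, 1.52% were called lower in MV4-11 and 3.12% in NOMO-1. With the block 2.71% of all genes fell in MV4-11 and 7.61% in NOMO-1. Where a short list holds only 1 or 2 such genes, the count is too small to set against these shares. Of 32 DNA replication genes, 12 were called lower in MV4-11 and 7 in NOMO-1, none in the other lines, and the medians were −0.95 in MV4-11, −0.84 in NOMO-1 and −0.14 in THP-1. With the block 21 of them fell in each of MV4-11 and NOMO-1. CDC6, which loads the replicative helicase, averaged 6.87 in treated and 8.04 in control MV4-11, and 7.14 in treated and 8.35 in control NOMO-1. GINS2, a helicase subunit, had −1.32 in MV4-11 and −1.46 in NOMO-1, and MCM10, an origin-firing factor, had −1.16 and −1.08. In THP-1 these genes lay on the lower side with 23 of 32 below 0, where 10 of the 49 mitotic genes were. Of the lists below, 8 of 22 kinetochore and 2 of 10 condensin, cohesin and separase genes were below 0 there. The counts were 7 of 14 for the spindle list and 7 of 14 for the anaphase-promoting complex. For the regulators it was 9 of 20, and 51% of all genes were below 0.

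Of 22 further kinetochore and centromere genes, 4 were called lower in MV4-11 and 3 in NOMO-1. CENPH was called in both, with −1.08 and −1.09, CENPN in MV4-11 (−1.27) and CENPM in NOMO-1 (−1.11). With the block 10 fell in MV4-11 and 4 in NOMO-1. Of 14 further spindle, centrosome and cytokinesis genes, 4 were called lower in MV4-11 and none elsewhere: SPAG5 (−1.33), CDCA2 (−1.30), STIL (−1.12) and CEP55. CEP55, an abscission scaffold named here after its values were seen, averaged 4.47 in treated and 5.99 in control MV4-11 and fell by 1.52 (adjusted p = 0.0440 with limma). With the block 5 of the 14 fell in MV4-11 and 4 in NOMO-1. Of 10 further condensin, cohesin and separase genes, SMC4 (−1.16) and SMC2 (−1.11), the core of condensin, were called lower in MV4-11, and the cohesin regulator CDCA5 (−1.02) in NOMO-1, and with the block 3 fell in MV4-11 and 2 in NOMO-1. Of 14 genes of the anaphase-promoting complex and mitotic exit, FBXO5 (EMI1), its inhibitor, was called lower in MV4-11 (−1.41) and UBE2S, its chain-elongating enzyme, in NOMO-1 (−1.08), while the scaffold subunit ANAPC1 was called in no line and averaged −0.36 over the lines. With the block 1 of the 14 fell in MV4-11 and 3 in NOMO-1.

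Of 20 regulators of the mitotic program, 2 were called lower in MV4-11, 1 in NOMO-1 and 1 in THP-1, and 1 was called higher, in NOMO-1. MYBL2, the MYB protein that works with FOXM1, averaged 7.69 in treated and 8.91 in control MV4-11, and E2F1 had −1.25 in NOMO-1. E2F5, a repressor of the family, had −1.12 in THP-1. With the block 4 regulators fell in MV4-11, 2 in NOMO-1, 1 in THP-1 and 1 in OCI-AML3, and 1 rose in NOMO-1 and 1 in THP-1. Of 8 G1 cyclins and kinases, CDK6 was called lower in NOMO-1 (−1.54) and THP-1 (−1.04), CDK4 in NOMO-1 (−1.61) and CDK2 in MV4-11 (−1.18). With the block 4 of the 8 fell in MV4-11, 4 in NOMO-1 and 2 in THP-1, and 1 rose in NOMO-1. Among 7 cyclin-dependent kinase inhibitors, CDKN1A (p21) fell by 2.14 in MV4-11, with 5.77 in treated and 7.91 in control cells (adjusted p = 0.0100), and had 0.95 in NOMO-1 and 0.81 in THP-1. CDKN2A fell by 1.41 in MV4-11, with 7.99 in treated and 9.40 in control cells (adjusted p = 0.0427). CDKN3, a phosphatase of CDK proteins, was called lower in NOMO-1 (−1.05). With the block 3 inhibitors fell in MV4-11 and 1 in NOMO-1, and 1 rose in NOMO-1 and 1 in THP-1.

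Myeloid lineage genes were also read, since these lines are of that lineage. Of 9 measured, 5 were called higher in THP-1, 3 in NOMO-1, 3 in OCI-AML3, 2 in U-937, 1 in MV4-11, 1 in MOLM-13 and 0 in HL-60. After adjustment over all genes 3 of them rose in THP-1, 2 in NOMO-1, 3 in OCI-AML3, 1 in U-937 and 1 in MV4-11. With the block 6 rose in THP-1, 5 in NOMO-1, 4 in OCI-AML3, 1 in U-937, 2 in MV4-11 and 1 in MOLM-13. The shares of all genes that rose after adjustment were not taken, so these adjusted counts cannot be set against them. CD14, a monocyte receptor, had 3.63 in NOMO-1 and 2.15 in THP-1, lysozyme LYZ 4.05 in U-937, and the integrin ITGAM 2.29 in THP-1. The summed log2 signal of the 9 genes was 73.5 and 74.1 on treated, against 68.4 and 69.0 on control arrays of MV4-11, and 84.4 and 85.1 on treated, against 73.0 and 74.5 on control arrays of THP-1. It was thus higher in treated cells both where the mitotic genes were below 0 and where most were above it, and its part in their differences was not tested. Lists for T, B, erythroid and stromal cells (8, 4, 4 and 5 genes) had calls for IL7R in NOMO-1 (4.91) and OCI-AML3 (1.70), CD4 (2.48) and CD2 (1.38) in NOMO-1, and DCN (1.16) in OCI-AML3, all higher.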

How the data were processed

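The values are the authors' deposited log2 signals of Clariom S arrays, made from biotin-labelled total RNA by RMA in R 3.6.1 (background correction, quantile normalization and summary per probe set) and not centred per gene. Quantile normalization holds array medians level, so a shift shared by most genes would not be seen. Of 27189 entries, 5741 array controls were left out, and of 21448 transcript probe sets 17709 carried 1 gene symbol. Averaging within the 20 genes that had more than 1 such probe set left 17687 genes, and 3739 probe sets without a name entered 1 alternative only.

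Treated and control arrays of a line were compared with limma 3.58.1 (lmFit, eBayes; R 4.3.3) over all genes, with Benjamini-Hochberg adjustment and no signal filter. A call needed an unadjusted p under 0.05 and a log2 difference of at least 1 in size, the study's fold change of 1 being read on the log2 scale. The 7 line differences served as samples for averages and group comparisons, and all 28 arrays were fitted together for differences between lines. SD is given for arrays and SE for fitted differences. The precision is limited by the number of arrays (2 per group) and by the difference between replicate numbers. It is also unknown whether replicates are separate cultures.

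Replicate numbers paired the arrays: deviations of same-numbered arrays from their condition means correlated at 0.42 to 0.64 over all genes and 0.67 to 0.78 over the 49, in all 7 lines. For these arrays the study's text speaks of a paired analysis within lines. Its statistics section names an unpaired t-test in GraphPad Prism for data shown as means ± SD, and does not mention the arrays. The main fits here leave the pairing out and the block is an alternative. Alternatives were the block, a shared spread, an ordinary unpaired t-test, an intensity trend and a signal minimum of 5 on the log2 scale. Others were unnamed probe sets, centring, a second quantile normalization and leaving out arrays or lines. The procedure was tested on simulated data in which arrays varied independently. That test left out the pairing by replicate number and so does not bear on the choice of the block. The members and lists were chosen with earlier results of these data known. Values in every sample were given for PBK, for members called in 2 or more lines, for the member with the highest difference in any line and for that with the largest difference between replicate numbers. Up to 3 genes were named per context list, by the lines called and then by the average difference. The study's ChIP-seq data were not analysed here.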

Additional observations from a re-analysis of the deposited data

Results flagged for a closer look

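The difference between lines itself passed the test for 3 genes: PTTG1 in NOMO-1 minus THP-1 (−1.24 on the log2 scale), KIF15 in MV4-11 minus THP-1 (−1.55) and TPX2 in MV4-11 minus THP-1 (−1.48), each at a limma adjusted p under 0.05. Each lost that call whenever 1 array per line was left out.

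One line lay far from the other 6 in 5 differences and 4 control levels, of 50 and 49 examined. The differences were those of MV4-11 for CDK1 (−1.30, next MOLM-13 with −0.43), TTK (−1.04, next U-937 with −0.27), BUB1B (−1.35, next MOLM-13 with −0.33), TPX2 (−1.31, next NOMO-1 with −0.35) and MKI67 (−0.63, next HL-60 with −0.08). The control levels were those of HL-60 for CCNB1 (7.27, next U-937 with 8.32), PBK (4.60, next NOMO-1 with 6.27), KIF20A (5.75, next NOMO-1 with 7.19) and ECT2 (4.25, next U-937 with 5.08). Among the 4 MLL-r lines alone, 50 differences were examined in the same way and 0 were marked, with fewer values in each set. Chance alone marks about 1 in 20 such sets of values, and genes of 1 line share its arrays.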

How the results depend on the processing

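The count of members called lower stayed within 1.5 times its main value in every line under centring, the signal minimum, unnamed probe sets, the intensity trend, the shared spread, the second quantile normalization and the replicate block. Of 23 single calls, 23 were kept with the block, 21 with a shared spread and 21 after quantile normalization. The ordinary unpaired t-test kept 6, and none turned its sign. Many calls were lost both without control replicate 1 and without treated replicate 2. In NOMO-1 these were CCNB1, PBK and MAD2L1. In MV4-11 they were CDK1, PBK, TTK, BUB1, BUB1B, MAD2L1, NUF2, KIF11, KIF18A, NCAPG and NCAPH. Without treated replicate 2 CCNB1 and KIF20A in MV4-11 and PTTG1 in NOMO-1 were lost too. Without control replicate 2 FOXM1 in MV4-11 and PTTG1 in NOMO-1 were lost.

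The ordinary unpaired t-test called 4 members lower in MV4-11, 1 in NOMO-1 and 1 in U-937, and none after Benjamini-Hochberg adjustment. At an adjusted p under 0.05 the replicate block, which reads same-numbered arrays as pairs, gave 32 members in MV4-11 and 13 in NOMO-1, the shared spread 4 and 3, and the trend 2 in MV4-11. In tests between lines the block gave 17 members for the interaction, 7 for NOMO-1 minus THP-1, 22 for MV4-11 minus THP-1 and 28 for the control level, and centring gave 1 for MV4-11 minus THP-1. The block changed no other count of members called or passing adjustment. Counts at an unadjusted p under 0.05 moved with it, and its counts for the other gene lists stand beside them.

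Leaving out 1 array per line gave 5 to 34 members called lower in MV4-11, 0 to 4 in MOLM-13, 0 to 15 in NOMO-1, 0 to 1 in THP-1, OCI-AML3 and HL-60, and 1 to 2 in U-937. Called higher were 0 to 1 in NOMO-1, OCI-AML3 and HL-60 and 0 to 3 in THP-1. Lower at an adjusted p under 0.05 were 0 to 29 in MV4-11, 0 to 4 in NOMO-1 and 0 to 1 in U-937. The average over lines gave 3 to 32 members at an unadjusted p under 0.05 and 0 to 11 after adjustment, the MLL-r minus non-MLL-r comparison 1 to 8, and sensitive minus not sensitive lines 1 to 24. NOMO-1 minus THP-1 and MV4-11 minus THP-1 gave 0 members in each case. Leaving out an array of 1 condition also unbalances the replicate numbers, on which these genes differ. The lone array left is assumed to vary like the other condition. Shares of all genes were not taken in these settings. Whether the ranges of member counts lie above the general rate therefore cannot be told.

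Without NOMO-1 the average gave 4 members and the MLL-r comparison 0. Without MV4-11 the average gave 2, the MLL-r comparison 0 and sensitive minus not sensitive lines 5. The cause was not tested beyond the fewer lines, and shares of all genes without a line were not taken.

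With 2 arrays per group, adjusted counts of 0 do not show that these genes stayed level. Named genes only were read, and levels of different probe sets were not compared.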
